A study of Mus musculus with 2 samples.

Results

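The 8 genes described here encode the enzymes and regulators of de novo lipogenesis, the synthesis of fatty acids from carbohydrate, and were chosen by name (Acly, Acaca, Acacb, Fasn, Me1, Thrsp, Mlxipl and Srebf1) from the 21113 genes of the deposited tables. All 8 had a row, and all 8 were measured, meaning an FPKM-like value that reached 1 in the ILN/ILN or the wild-type library, as did 11556 of the 21113. The tables hold polyadenylated RNA of whole mammary gland from C57BL/6 mice at postnatal week 6, sequenced from strand-marked fragments. One library came from a Mir212/132ILN/ILN sample, in which a cassette of IRES, LacZ and Neo (ILN) sits in the gene locus of miR-212 and miR-132 on both alleles, and 1 library came from a wild-type sample. The labels name no number of animals behind a sample and no allele restricted to a cell type.

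In de novo lipogenesis, citrate that leaves the mitochondria is split in the cytosol to acetyl-CoA by ATP citrate lyase, acetyl-CoA carboxylase makes malonyl-CoA from it, and fatty acid synthase joins these units to palmitate with NADPH as reductant. The insulin-responsive factor SREBP-1 and the carbohydrate-responsive factor ChREBP drive transcription of these enzymes. In the gland before pregnancy such transcripts come largely from the white adipocytes of the fat pad, whereas the secretory epithelium takes over fat synthesis in lactation.

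The ILN/ILN library held 42953129 fragments and the wild-type library 46133338, a fragment being the deposited signal per kilobase multiplied by the deposited gene length. Levels are given as the deposited FPKM-like value, which is scaled for gene length and library size. Ratios are ILN/ILN over wild type and were taken from fragments divided by these library totals. Values in parentheses after a ratio are exact conditional (Clopper-Pearson) 95% intervals, and they cover counting error only. They can be too narrow even for that, because fragments counted without molecular identifiers can be copies of 1 molecule. With 1 library per genotype there was no replicate and no test, so no difference below can be set against the spread between animals. The libraries differed in epithelium before any lipogenesis gene is considered: the luminal keratin gene Krt8, a defining marker of mammary epithelium, had 0 fragments in the ILN/ILN library and 742 in the wild-type library, whereas the 12 white adipocyte markers were each at 100.4 or more on the FPKM-like scale in the ILN/ILN library and at 88.5 or more in the wild-type library. RNA of the disrupted locus itself was not analysed here, and the genotypes are taken from the labels alone. In whole tissue, fewer cells of a type and less RNA per cell cannot be told apart.

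The mature microRNAs of the disrupted locus that carry the shared seed are printed here because the genotype is defined by them. They are RefSeq sequences (GRCm38.p6, chromosome 11, plus strand), written 5′ to 3′ with the seed, bases 2 to 8, in capitals. They lie at chr11:75173723-75173744 for miR-132-3p and chr11:75173443-75173464 for miR-212-3p.
mmu-miR-132-3p: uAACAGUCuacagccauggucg
mmu-miR-212-3p: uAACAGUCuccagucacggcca
Both have the seed AACAGUC, for which the matching letters in a target are GACTGTT. Among the 8 lipogenesis genes, 1 had these letters in its 3′ untranslated region, Srebf1 (longest region per gene, GENCODE M21). Of 10270 measured genes with such a region, 1296 held them, or 12.6%. The match in Srebf1 began at base 776 of a region of 833 bases and is shown with its surroundings, the match in capitals.
Srebf1 match: ctgaatgcaatGACTGTTttttttttttt
A match of letters is a description and does not show that the site is used. Srebf1, the 1 gene with a match, stood below the wild-type level by 1.08-fold (1.07 to 1.10).

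The 8 genes differed little between the libraries. Their ratios ran from 0.672 for Acly to 1.17 for Me1, with 3 genes higher in the ILN/ILN library (Me1, Acaca and Mlxipl) and 5 lower (Acly, Thrsp, Fasn, Srebf1 and Acacb). None of the 8 was past 1.5-fold in either direction, where 10.5% of 11528 measured genes with a fragment ratio were. By the deposited FPKM-like value, on the log2(value + 1) scale, it was again 0 of 8, where 7.29% of genes were. At 2-fold it was 0 of 8, against 4.2% of genes, and past a ratio of 5 to 4 it was Acly alone, against 27.9% of genes. The median log2 ratio of the 8 was -0.09, against 0.02 over all these genes. The genes were abundant, so the intervals of counting error were narrow. The widest interval was that of Mlxipl, which had 5028 fragments in the ILN/ILN library and 5088 in the wild-type library.

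Summed over the 8 genes, 989409 fragments or 2.30% of the ILN/ILN library came from lipogenesis transcripts, against 1142905 fragments or 2.48% of the wild-type library. The sum stood below the wild-type sum by 1.08-fold (1.07 to 1.08). Fasn alone supplied 65.6% of these fragments in the ILN/ILN library and 66.8% in the wild-type library. Without Fasn, the other 7 genes together had a ratio of 0.965.

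Per length, the order of levels was led in both libraries by Fasn and Thrsp, which ranked 55 and 66 among all 21113 genes in the ILN/ILN library and 58 and 65 in the wild-type library. In the ILN/ILN library the FPKM-like values then ran Me1, Acaca, Acly, Srebf1, Acacb and Mlxipl. In the wild-type library Acly stood before Me1 and Acaca, and the rest of the order was the same. Me1, Acaca and Acly lay at 334, 309 and 276 in the ILN/ILN library. The value of Acly came from a derived estimate, described below, and those of Me1 and Acaca from the original one. By the original signal per kilobase Me1, Acaca and Acly were at 15111.5, 13942 and 9854 in that library, with Acly farther apart. With 1 library each no spread is available to separate neighbours in the order.

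**Figure D1:**
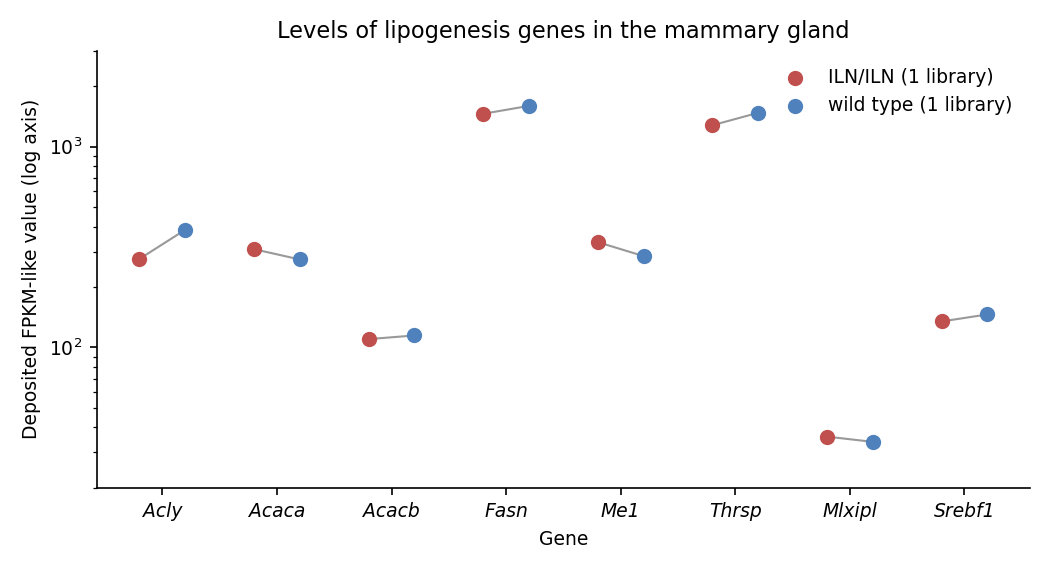
Deposited FPKM-like value (vertical log axis) of each lipogenesis gene (horizontal axis) in the ILN/ILN library (red, left) and the wild-type library (blue, right), with 1 library each, so no error bar. Fasn and Thrsp lie above 1000 in both libraries, Mlxipl lies lowest, and the line between the points is steepest for Acly.

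Acly (gene identifier 104112) encodes ATP citrate lyase, which makes cytosolic acetyl-CoA from citrate. It had 42017 fragments in the ILN/ILN library and 67124 in the wild-type library. Its level was 1.49-fold lower in ILN/ILN (1.47 to 1.51), just inside the 1.5-fold limit and the largest difference among the 8 genes. The table lists 2 isoforms of Acly, and its deposited value came in both libraries from a second, derived estimate that was larger than the one behind the fragments. The derived signal per kilobase was 12466 in the ILN/ILN library and 18701 in the wild-type library, and the original signal was 9854 in the ILN/ILN library and 15742 in the wild-type library. The derived estimate gave a ratio of 0.716, and the FPKM-like value was 276 in the ILN/ILN library and 385 in the wild-type library. Both estimates thus put Acly lower in the ILN/ILN library, by amounts that differed.

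Acaca (gene identifier 107476) encodes acetyl-CoA carboxylase 1, the cytosolic enzyme that supplies malonyl-CoA for synthesis. It was at 309 in the ILN/ILN library and 274 in the wild-type library, with 125203 and 119499 fragments in those libraries, a ratio of 1.13 (1.12 to 1.13). Acacb (gene identifier 100705) encodes acetyl-CoA carboxylase 2, the mitochondrial form, whose malonyl-CoA restrains fatty acid oxidation. It was at 110.0 in the ILN/ILN library and 115 in the wild-type library, 1.04-fold lower (1.03 to 1.06). The cytosolic form was the more abundant one in both libraries, with 2.81 times the fragments per kilobase of Acacb in the ILN/ILN library and 2.39 times in the wild-type library.

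Fasn (gene identifier 14104) encodes fatty acid synthase, which carries out all steps from malonyl-CoA to palmitate on 1 polypeptide. It had 648968 fragments in the ILN/ILN library and 764008 in the wild-type library, at FPKM-like values of 1456 and 1595 in those libraries. The ratio was 0.912 (0.909 to 0.915). Fasn stayed 4.35 times as abundant per kilobase as Me1 in the ILN/ILN library, against 5.60 times in the wild-type library.

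Me1 (gene identifier 17436) encodes cytosolic malic enzyme, which returns pyruvate and yields NADPH for the synthase. It had the highest ratio of the 8 genes, at 334 in the ILN/ILN library and 285 in the wild-type library, with 44443 and 40682 fragments in those libraries (1.17-fold higher; 1.16 to 1.19). Me1 also has 2 isoforms in the table. Its deposited value came from the original estimate in both libraries, and its derived estimate reached 14.4% of the original in the ILN/ILN library and 10.7% in the wild-type library. The derived estimate alone gave a ratio of 1.58. A gap between the derived and the fragment ratio of this size or larger, in the same direction, was present in 24.2% of 1329 measured genes whose derived estimate lay below the original in both libraries.

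Thrsp (gene identifier 21835) encodes the Spot 14 protein, a thyroid hormone-responsive factor of lipogenic tissues that promotes fatty acid synthesis. It was at 1277 in the ILN/ILN library and 1473 in the wild-type library, with 56375 and 69875 fragments in those libraries, 1.15-fold lower (1.14 to 1.17). Among the 8 genes Thrsp was second to Acly in how far it lay below the wild-type library.

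The genes of the 2 transcription factors differed little between the libraries, 1 lower and 1 higher in the ILN/ILN library. Srebf1 (gene identifier 20787), which encodes the SREBP-1 proteins, was at 135 in the ILN/ILN library and 146 in the wild-type library, with 25509 and 29713 fragments in those libraries (ratio 0.922; 0.907 to 0.938). Mlxipl (gene identifier 58805), which encodes ChREBP, was at 35.975 in the ILN/ILN library and 33.881 in the wild-type library, a ratio of 1.06. Per kilobase, Mlxipl stood at 0.267 of Srebf1 in the ILN/ILN library and at 0.232 in the wild-type library. The table lists 1 isoform for each, so SREBP-1a and SREBP-1c, or the alpha and beta forms of ChREBP, were not separated. An exon of Srebf1 overlaps an exon of Rai1 on the opposite strand by 109 bases in GENCODE M21, and the libraries mark strand but the labels do not say that the counting used it, so the Srebf1 value is uncertain to that extent. Me1 overlaps an antisense gene by 30 bases, and the other 6 genes overlap no annotated exon of another gene.

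**Figure D2:**
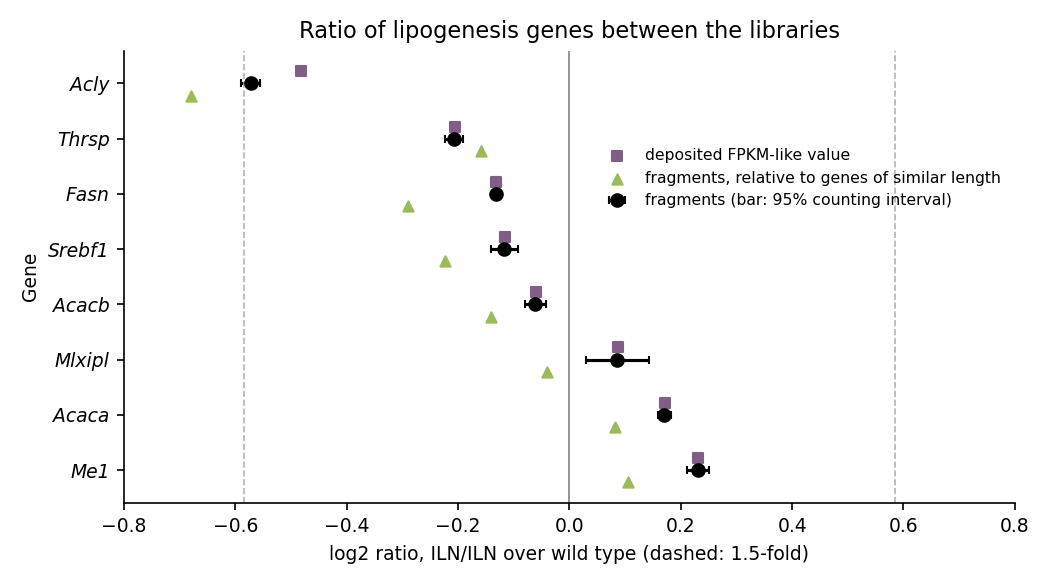
Log2 ratio, ILN/ILN over wild type (horizontal axis), of each lipogenesis gene (vertical axis), from fragments with 95% counting intervals (black), from the deposited FPKM-like value (squares) and from fragments relative to genes of similar length (triangles), with dashed lines at 1.5-fold. Acly lies farthest from 0 by each measure, and its triangle lies past the dashed line at -0.68.

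Ratios between 2 genes of the same library do not depend on how the libraries were scaled. Pairs among the 8 genes are given with approximate 95% intervals on the log scale, for counting error only. At this depth such an interval leaves out 1 even for a small difference. How often it does so in pairs of other genes was not computed, so no count of pairs is given. The pair that moved least was Fasn over Srebf1, at 10.8 in the ILN/ILN library and 10.9 in the wild-type library (ratio of the ratios 0.989; 0.973 to 1.01). Acly had the lowest and Me1 the highest ratio of the 8, so the pair that moved most was necessarily Acly over Me1. This pair was at 0.652 in the ILN/ILN library and 1.14 in the wild-type library, 1.75-fold lower (1.71 to 1.78). Acly over Acaca, the following step, stood at 0.707 in the ILN/ILN library and 1.18 in the wild-type library, 1.67-fold lower (1.65 to 1.70). That Acly was lower by fragments relative to each of the other 7 genes follows from its lowest ratio and is no further observation. Acaca over Fasn was 1.23-fold higher in the ILN/ILN library (1.22 to 1.24), at 0.212 in that library and 0.172 in the wild-type library.

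Acly lay far out among well-counted genes and the other 7 lay within the bulk. In 1332 measured genes with at least 5000 fragments in each library, 3.3% were past 1.5-fold in either direction and the median log2 ratio was 0.05. Of these 1332 genes, 48 had a log2 ratio as far from 0 as that of Acly, or 3.60%, and 32 were as low, Acly counted in both. For the other 7 genes, between 32.4% (Me1) and 79.1% (Acacb) of the 1332 genes lay as far from 0. These shares describe the 2 libraries and are not a test.

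Ratios between the libraries moved with gene length. Among the 1332 genes the median log2 ratio was -0.12 in 264 genes of up to 1000 bases and 0.11 in 710 genes longer than 2000 bases. The lipogenesis genes ran from 977 bases for Thrsp to 9864 bases for Fasn, so each was also set against genes of similar length, a comparison chosen after the data were seen. Acly, with a length of 4264 bases, was 1.60-fold lower than the median of 219 such genes, of which 2 were as low. Fasn was 1.22-fold lower than the median of 34 genes of similar length, Srebf1 1.17-fold, Thrsp 1.12-fold and Acacb 1.10-fold. Acaca and Me1 stayed higher, by 1.06-fold and 1.08-fold, whereas Mlxipl changed side, to a log2 value of -0.04. Thus 6 of the 8 genes lay below the median of genes of similar length, and the median of the 8 differences was -0.15. Below that median does not mean lower in the ILN/ILN library, since Mlxipl is among the 6. By its definition such a median has about as many genes below it as above. The part of gene length in these results was not tested further.

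**Figure D3:**
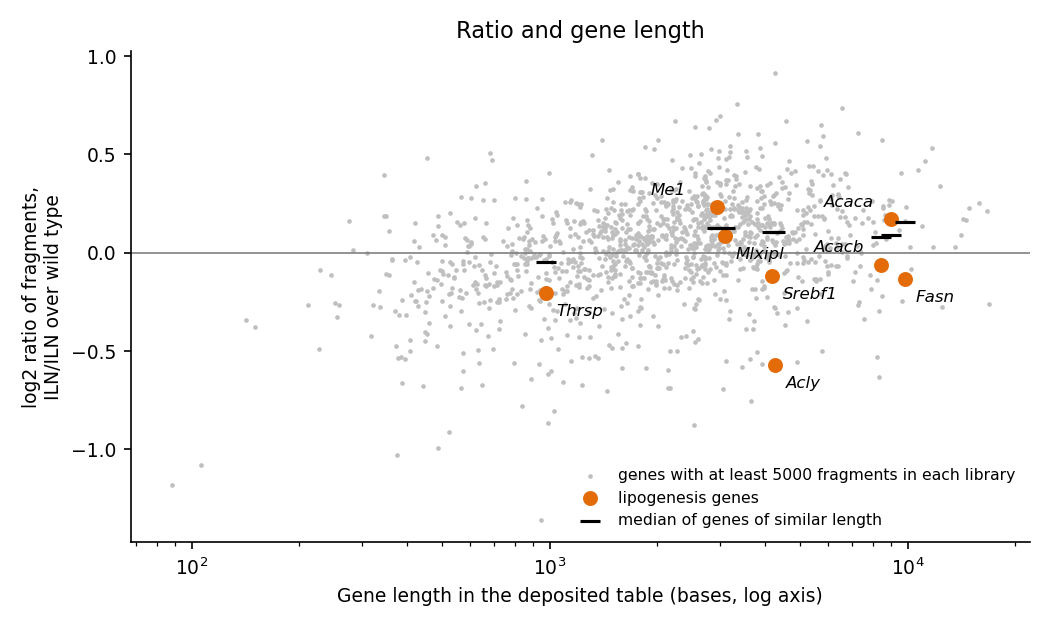
Log2 ratio of fragments, ILN/ILN over wild type (vertical axis), against gene length in bases (horizontal log axis) for 1332 genes with at least 5000 fragments in each library (grey) and the 8 lipogenesis genes (orange), with a black dash at the median of genes of similar length to each. Acly lies at -0.57 with the median of similar genes at 0.11, and short genes such as Thrsp lie where the grey cloud is lower.

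Promoter windows of 4 genes are printed here because Acly and Me1 had the lowest and the highest ratio and Fasn and Thrsp the highest levels. They are RefSeq windows (GRCm38.p6) from 250 bases before to 50 bases after a transcription start, on the gene's own strand, 5′ to 3′. Capitals mark matches on either strand to any of 5 motifs: the sterol regulatory element TCACNCCAC bound by SREBP, the E-box CACGTG, the CCAAT box, the GC box GGGCGG, and the LXR element, here 2 copies of AGGTCA in the same direction with 4 bases between them. The windows are chr11:100527951-100528250 for Acly, chr9:86695865-86696164 for the upstream start of Me1, chr11:120824498-120824797 for Fasn and chr7:97417501-97417800 for Thrsp, all on the minus strand.
Acly: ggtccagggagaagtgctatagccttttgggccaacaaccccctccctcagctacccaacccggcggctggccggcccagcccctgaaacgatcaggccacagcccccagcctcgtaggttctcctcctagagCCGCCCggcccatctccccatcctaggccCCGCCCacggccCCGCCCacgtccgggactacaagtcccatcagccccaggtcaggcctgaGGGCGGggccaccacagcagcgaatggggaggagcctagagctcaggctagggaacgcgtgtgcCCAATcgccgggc
Me1: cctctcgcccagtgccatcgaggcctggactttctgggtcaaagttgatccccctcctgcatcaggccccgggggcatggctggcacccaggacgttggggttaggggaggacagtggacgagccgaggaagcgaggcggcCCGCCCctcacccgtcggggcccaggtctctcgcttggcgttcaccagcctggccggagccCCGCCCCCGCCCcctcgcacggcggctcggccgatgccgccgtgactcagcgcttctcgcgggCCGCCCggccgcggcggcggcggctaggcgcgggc
Fasn: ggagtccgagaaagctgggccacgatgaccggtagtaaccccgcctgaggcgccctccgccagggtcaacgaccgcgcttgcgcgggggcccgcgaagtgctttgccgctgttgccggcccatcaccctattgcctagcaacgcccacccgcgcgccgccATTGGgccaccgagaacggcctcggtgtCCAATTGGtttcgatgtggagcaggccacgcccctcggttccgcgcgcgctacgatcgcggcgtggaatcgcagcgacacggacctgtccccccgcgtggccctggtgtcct
Thrsp: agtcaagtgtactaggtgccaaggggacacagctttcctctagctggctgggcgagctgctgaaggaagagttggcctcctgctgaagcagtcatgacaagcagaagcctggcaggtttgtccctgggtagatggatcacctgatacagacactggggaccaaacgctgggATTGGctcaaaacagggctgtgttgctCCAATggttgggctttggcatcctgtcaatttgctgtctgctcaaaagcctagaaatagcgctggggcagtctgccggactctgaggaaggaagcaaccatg
In Fasn, 3 CCAAT boxes began 90, 62 and 59 bases before the start, with the last 2 overlapping, and in Thrsp 2 began 79 and 52 bases before it. Acly and the upstream start of Me1 held 4 GC boxes each, and Acly 1 CCAAT box after the start. The table had 12 windows for the 8 genes. A CCAAT box was in 8 of the 12 windows, against 37.4% of all 32851 windows, and a GC box in 5 of the 12, against 35.7%. The sterol regulatory element and the E-box were each in 1 window, at the downstream and the upstream start of Mlxipl, where 1.24% and 7.15% of all windows hold them. The LXR element was in none of the 12, and in 0.0152% of all windows. A window without a match says only that these letters are not in it.

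Of the 8 genes, 4 lie on chromosome 11 with the microRNA locus (Acaca, Srebf1, Acly and Fasn). In GRCm38.p6 their starts are 9.02 megabases from the locus for Acaca, 15.0 for Srebf1, 25.4 for Acly and 45.7 for Fasn. Of these 4, Acaca was higher and the other 3 were lower in the ILN/ILN library.

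The other genes of the pathway were followed through 10 lists of 86 genes, of which 85 had a row and 80 were measured. By fragments 1 of the 80 was past 1.5-fold higher in the ILN/ILN library, where 2.89% of all measured genes were, and 1 was past 1.5-fold lower, where 7.61% were. The median log2 ratio of the 80 genes was 0.02. The lists had medians between -0.03 and 0.22.

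Genes that supply citrate and acetyl-CoA had small ratios, none past 1.5-fold. Of 10 measured genes 8 had a log2 ratio above 0 and 2 below, with a median of 0.15, where 6081 of 11528 measured genes were above 0. Relative to white adipocyte markers 4 of the 10 stayed above 0 and the median was -0.0037, where 29.5% of all measured genes with fragments in both libraries stayed above 0. Cs, the citrate synthase, was at 366 in the ILN/ILN library and 285 in the wild-type library (1.28-fold higher; 1.26 to 1.30). Pcx, pyruvate carboxylase, was 1.17-fold higher, and Acss2, which makes cytosolic acetyl-CoA from acetate, was at 117 in the ILN/ILN library and 98.8 in the wild-type library. Slc25a1, the mitochondrial citrate exporter that feeds Acly, was at 687 in the ILN/ILN library and 679 in the wild-type library (1.01; 0.999 to 1.02), an interval that includes 1. Acss1, the mitochondrial acetate enzyme, was lower, at 5.43 in the ILN/ILN library and 7.72 in the wild-type library.

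The list of NADPH supply beside Me1 holds dehydrogenases, malic enzymes and 3 further genes of the pentose phosphate pathway (Pgls, Tkt and Taldo1). Membership does not mean that a gene's product makes NADPH, and those of these 3 do not. Of its 8 genes 4 were above 0 and 4 below, none past 1.5-fold, with a median of -0.01. G6pdx, which opens the pentose phosphate pathway, was at 207 in the ILN/ILN library and 184 in the wild-type library. Pgd, the second NADPH-yielding step of that pathway, was 1.09-fold higher, and Idh1, the cytosolic isocitrate dehydrogenase, 1.14-fold higher. These 3 dehydrogenases and Tkt were the 4 genes above 0, where 6081 of 11528 measured genes were. Relative to white adipocyte markers 2 of the 8 genes stayed above 0 and the median was -0.16. Under that scaling 29.5% of all measured genes with fragments in both libraries stayed above 0. Pgls, the lactonase between G6pdx and Pgd, was 1.20-fold lower. Me2, a mitochondrial malic enzyme, was at 8.51 in the ILN/ILN library and 10.4 in the wild-type library.

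Genes that act on acetyl-CoA carboxylase had 6 of 11 measured members above 0 and 5 below, with a median of 0.09 and none past 1.5-fold. That median was -0.0093 with an expression minimum of 5 and -0.06 relative to white adipocyte markers. Prkaa1 and Prkaa2, the catalytic subunits of the kinase AMPK that inhibits the carboxylases, were 1.22-fold and 1.31-fold higher in the ILN/ILN library. Prkaa1 was at 8.17 in the ILN/ILN library and 6.71 in the wild-type library. Prkaa2 lay near the minimum for a measured gene, at 1.71 in the ILN/ILN library and 1.31 in the wild-type library. The regulatory subunit gene Prkab2 was 1.38-fold higher (1.24 to 1.55), at 3.66 in the ILN/ILN library and 2.64 in the wild-type library. Prkab1 was 1.21-fold lower. Mid1ip1, a paralog of Thrsp whose product promotes carboxylase polymerization, was 1.18-fold lower by fragments (1.09 to 1.27). Its deposited value came at least in part from the derived estimate. Mlycd, which degrades malonyl-CoA, was 1.08-fold higher.

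Regulators upstream of Srebf1 and Mlxipl had ratios on both sides, none past 1.5-fold. Of 5 measured genes of SREBP processing 2 were above 0 and 3 below, with a median of -0.01. Insig1, which retains SREBP in the endoplasmic reticulum, was at 74.3 in the ILN/ILN library and 62.9 in the wild-type library, whereas Srebf2, the gene of the sterol-regulating SREBP-2, was at 10.3 in the ILN/ILN library and 14.2 in the wild-type library (1.38-fold lower; 1.30 to 1.46). Scap, the SREBP escort, was 1.09-fold lower. Of 12 genes of the LXR, ChREBP and Thrsp regulators 6 were above 0 and 6 below, with log2 ratios between -0.26 and 0.13. Over all measured genes 6081 of 11528 were above 0. Relative to white adipocyte markers 0 of the 12 stayed above 0 and the median was -0.16. Under that scaling 29.5% of all measured genes with fragments in both libraries stayed above 0. Nr1h3, the LXR alpha gene, was at 107 in the ILN/ILN library and 102 in the wild-type library, and Mlx, the obligate partner of ChREBP, was 1.09-fold lower. Targets of ChREBP outside fatty acid synthesis were mixed, 2 of 5 above 0 and 3 below, with Txnip at 488 in the ILN/ILN library and 499 in the wild-type library and Khk, the fructokinase gene, 1.29-fold lower.

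The steps after palmitate held genes on both sides. Of 12 measured desaturation and elongation genes 4 were above 0 and 8 below, with a median of -0.02. Scd1, by far the more abundant stearoyl-CoA desaturase gene, was at 6511 in the ILN/ILN library and 4838 in the wild-type library, 1.35-fold higher by fragments. Scd2, a low-level gene of the same family and the 1 gene of the list past 1.5-fold, was at 6.70 in the ILN/ILN library and 13.2 in the wild-type library, a log2 ratio of -0.98. Fads1, a desaturase of polyunsaturated fatty acids, was 1.43-fold higher and Hsd17b12, the ketoacyl reductase of elongation, 1.32-fold higher. Elovl6, which elongates palmitate, was at 32.1 in the ILN/ILN library and 33.1 in the wild-type library (log2 -0.04). Summed over the list, fragments were 1.33-fold higher in the ILN/ILN library, at 1414835 against 1144428 in the wild-type library. Most of this sum was Scd1 alone, with 1358180 fragments in the ILN/ILN library and 1084300 in the wild-type library. The sum therefore describes Scd1 rather than the list. Of 9 genes of fatty acid activation and esterification 6 were above 0 and 3 below, with a median of 0.22, where 6081 of 11528 measured genes were above 0. Relative to white adipocyte markers 5 of the 9 stayed above 0 and the median was 0.07. Under that scaling 29.5% of all measured genes with fragments in both libraries stayed above 0. Acsl1, which activates long-chain fatty acids, was at 1045 in the ILN/ILN library and 688 in the wild-type library, 1.52-fold higher by fragments (1.51 to 1.53). Like Acly it lay near the 1.5-fold limit, and it was not past it when libraries were scaled by the median of gene-wise ratios (log2 0.58) or by white adipocyte markers (log2 0.45). Gpam, the first acyltransferase of glycerolipid synthesis, was 1.35-fold higher. 

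**Figure D4:**
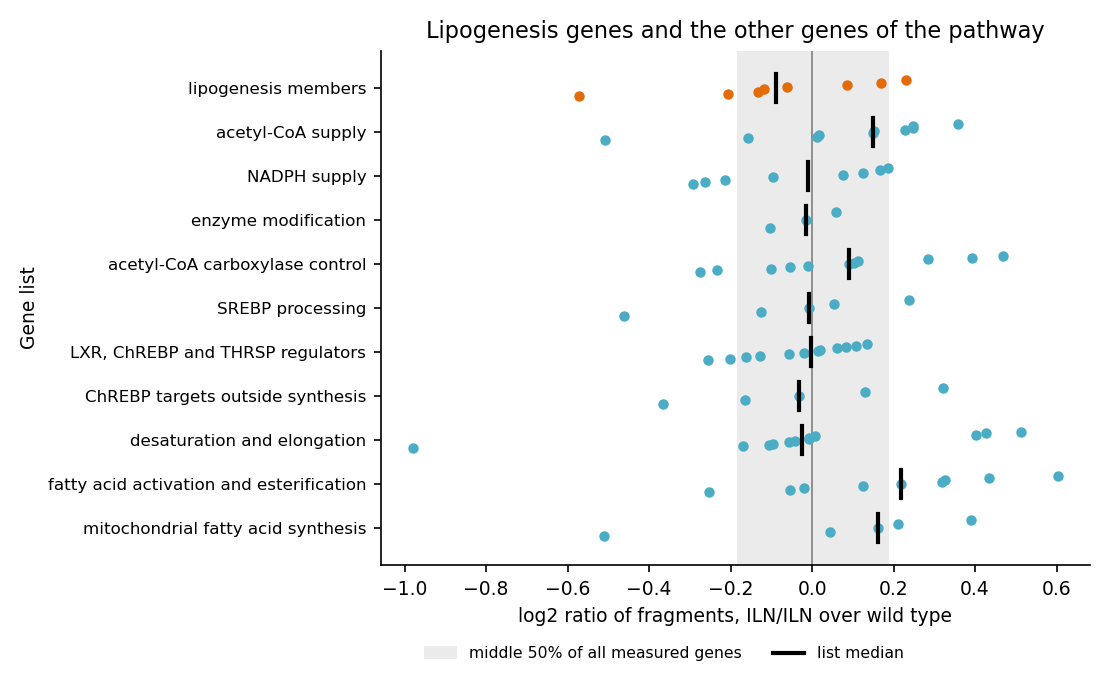
Log2 ratio of fragments, ILN/ILN over wild type (horizontal axis), for each measured gene of the lipogenesis set (orange, top) and of 10 further lists of the pathway (blue), with the list median as a black bar and the middle 50% of all measured genes shaded. The lipogenesis median lies at -0.09 and the activation and esterification median at 0.22.

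Markers of the cell types in the gland did not move alike. White adipocyte markers were present in both libraries and had 9 of 12 genes above 0, a median log2 ratio of 0.15, and a range from -0.42 for Cfd to 0.48 for Cd36. Their summed FPKM-like value was 78806 in the ILN/ILN library and 87486 in the wild-type library. Set relative to the adipocyte marker median, which lowers every log2 ratio by 0.15, the lipogenesis genes had log2 ratios from -0.73 for Acly to 0.08 for Me1, with 2 above 0 and a median of -0.24. Mlxipl changed side under that scaling, to -0.07.

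The 12 luminal epithelium markers had a sum of 1.403 FPKM-like units in the ILN/ILN library and 42.4 in the wild-type library. None was above 0.389 in the ILN/ILN library, so the 8 measured ones passed the minimum through the wild-type library alone. All 8 were past 1.5-fold lower, a count that this filter favours and that is no separate result. The highest ratio of the 12 was 0.859 for Ehf, below the minimum. Ehf had 40 fragments in the ILN/ILN library and 50 in the wild-type library. Krt8, Elf5, Cldn7 and Csn3 were at 0 fragments in the ILN/ILN library. In the wild-type library they had 742, 51, 45 and 2, the last below the limit of 3 fragments. Of 7 basal epithelium markers the keratin genes Krt5, Krt14 and Krt17 were at 0 fragments in the ILN/ILN library, and they were below the minimum for a measured gene in the wild-type library too, with 78, 62 and 59 fragments. Of the 4 measured basal markers 1 was above 0 and 3 below, none past 1.5-fold, from -0.38 for the contractile gene Acta2 to 0.33 for the oxytocin receptor gene Oxtr. The summed value of the 7 was 58.4 in the ILN/ILN library and 76.3 in the wild-type library, most of it from Acta2. All 9 lymphocyte markers were lower past 1.5-fold, where 7.61% of all measured genes were. Their sums were 77.2 in the ILN/ILN library and 267 in the wild-type library. All 7 macrophage markers were lower, where 5447 of 11528 measured genes were, and 3 of the 7 were past 1.5-fold. Their sums were 2064 in the ILN/ILN library and 2879 in the wild-type library. Of 6 measured brown adipocyte markers 4 were above 0, with a median of 0.05 and a range from -1.20 for Ucp1 to 0.54 for Ppara. Fibroblast markers had a median of 0.07 and endothelial markers of 0.36. The part of these cell types in the lipogenesis ratios was not tested.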

How the data were processed

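Polyadenylated RNA of mammary gland was sequenced from 1 ILN/ILN and 1 wild-type sample, 2 lanes each, per the labels. Bowtie 0.12.3, TopHat 1.4.1, bedtools and the build mm9 are named in the submitters' processing notes with no role. Which program made the gene tables, and whether it used strand, the sources used here do not say.

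The authors deposited an FPKM-like value, log2(value + 1) of it, and a signal per kilobase as an original, a derived and a final estimate, the final being the larger in all 21113 genes. Per the file headers the tables also hold a gene length and isoform numbers. The original signal times the length was whole, within 0.01, in 100% of genes above 0 and is called fragments.

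Ratios of fragments over library totals and their intervals were computed with Python 3.11.15 and scipy 1.17.1, and the steps were tested on simulated data. With 1 library per genotype no p-value was computed, and a gene past 1.5-fold stands in for a call. The limit a count of 0 allows is 3 fragments in each library.

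The genes and lists were chosen with earlier results of these data known. All 8 lipogenesis genes were named. From each pathway list any measured gene could be named, and those past 1.5-fold always were. From each marker list the extremes and any gene at 0 in 1 library could be named. No gene was named for a pattern like these 8, since 2 libraries give 1 ratio. Sequences are RefSeq (GRCm38.p6) and 3′ untranslated regions GENCODE M21, and no coordinate was carried between builds.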

Additional observations from a re-analysis of the deposited data

How the results depend on the processing

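With 1 library per genotype no library could be left out. No paired analysis was possible because each genotype has 1 library and nothing was tested. Acly lies so near 1.5-fold that the count past it, 0 of 8 as reported, was 1 (Acly) when libraries were scaled by the median of gene-wise ratios, by the upper quartile of fragments or by white adipocyte markers, and 1 (Acly) with a threshold of 5 to 4 in place of 1.5-fold. Relative to genes of similar length it was 1 (Acly) and from the derived estimate 1 (Me1), both settings chosen after seeing the data. The median log2 ratio of the 8 genes was -0.09 as reported, -0.24 with adipocyte scaling and -0.15 relative to length, and the cause was not tested. Of 10 pathway lists 4 had a median above 0. It was 2 with adipocyte scaling, 3 relative to length, 5 with a pseudocount of 5 or no expression minimum, and 6 with an expression minimum of 5 or the derived estimate. Over the 9 alternatives chosen at the start that give a ratio, 7 of the 8 genes kept their direction. The exception was Mlxipl, with log2 ratios from -0.07 to 0.09. Most of these alternatives could hardly change a side. The expression minimums leave each of the 8 ratios as it was, and the deposited values moved them little except for Acly. Acly ranged from -0.73 to -0.47 and Me1 from 0.08 to 0.23. Intervals of counting error were narrow at this depth, and copies of 1 molecule can make them too narrow. Differences between animals, dissections or library preparations could not be measured.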

Other observations

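Genes that modify the lipogenic enzymes differed little between the libraries. Hlcs, the ligase that attaches biotin to the acetyl-CoA carboxylases, was at 5.56 in the ILN/ILN library and 5.34 in the wild-type library (ratio 1.04; 0.961 to 1.13). Aasdhppt, which attaches the phosphopantetheine arm to fatty acid synthase, was at 3.34 in the ILN/ILN library and 3.59 in the wild-type library (0.931; 0.815 to 1.06). Both intervals of counting error included 1, as did that of Btd, which recycles biotin (0.990; 0.945 to 1.04).

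Mitochondria have their own fatty acid synthesis, which makes the precursor of lipoic acid. Of its 5 measured genes 4 had a log2 ratio above 0 and 1 below, with a median of 0.16, where 6081 of 11528 measured genes were above 0. Relative to white adipocyte markers 3 of the 5 stayed above 0 and the median was 0.0076. Under that scaling 29.5% of all measured genes with fragments in both libraries stayed above 0. Cbr4, a subunit of the ketoacyl reductase, was at 17.8 in the ILN/ILN library and 13.5 in the wild-type library (1.31-fold higher; 1.18 to 1.45), and Mecr, the enoyl reductase, was 1.16-fold higher. Ndufab1, the mitochondrial acyl carrier protein, was at 71.8 in the ILN/ILN library and 102 in the wild-type library (ratio 0.702; 0.666 to 0.740).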
